A study of Mus musculus with 6 samples.

Results

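The small leucine-rich proteoglycans examined here are 10 genes, Dcn, Bgn, Aspn, Lum, Fmod, Prelp, Kera, Omd, Ogn and Epyc. They were taken by name from 30702 named genes, and all 10 had a probe set with a single gene symbol, 1 probe set each. The arrays read total RNA of male C57BL/6 mice, 2 months old, from the white fat of the groin (inguinal subcutaneous WAT). The KO group was 3 arrays of mice with floxed TFG alleles (TFG f/f) and Adipoq-ERT2Cre. This is a tamoxifen-activated Cre driven by the adiponectin promoter, which is active in adipocytes. The WT group was 3 arrays of mice with the same floxed alleles and no Cre. Both groups received tamoxifen for 5 days and were sampled 2 weeks later, so tamoxifen and the floxed alleles were shared, while Cre itself and the loss of TFG cannot be told apart. The study compared these groups to see how fat gene expression differs when adipocytes lose TFG, a protein of the sites where cargo leaves the endoplasmic reticulum.

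Small leucine-rich proteoglycans are secreted proteins with a core of leucine-rich repeats that bind collagen fibrils in the extracellular matrix. In connective tissue they regulate fibril assembly, and several also bind growth factors and cell surface receptors. Most carry chains of chondroitin or dermatan sulfate (Dcn, Bgn and Epyc) or keratan sulfate (many members of class II), which are built in the Golgi. In fat, several of them are best known as products of fibroblasts and adipocyte progenitors, while the Cre is driven by a promoter active in adipocytes. Which cells made the transcripts measured here was not tested.

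Each array gave a log2 signal per probe set, and each group mean averages 3 arrays. WT arrays had medians from 6.96 to 7.02 and KO arrays from 6.47 to 6.76, with KO 2 the lowest. KO 2 correlated with KO 1 and KO 3 at 0.96 and 0.965 across probe sets, below the 0.986 between those. The probe set of Tfg was not lower on the KO arrays, at 7.97, 7.94 and 7.91 on WT 1 to WT 3 and 7.99, 8.21 and 8.03 on KO 1 to KO 3 (limma adjusted p = 0.345). The group names are therefore used as labels, and every direction below is between the arrays labelled KO and those labelled WT. The mean of 14 housekeeping genes was 9.04 to 9.37 on WT and 10.14 to 10.81 on KO arrays, 1.19 higher. The median of 1082 olfactory receptor genes, which fat is not known to use, went the other way, from 7.39 to 7.61 on WT to 6.31 to 6.87 on KO arrays. The part of this spread between bright and dim probe sets in the results was not tested, so each member's change is also given relative to both references. The housekeeping genes did not move together: their changes ran from -0.28 to 4.83 (B2m), and 7 of 14 were called higher. Without B2m their mean differed by 0.91.

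The 3 class I genes, Dcn, Aspn and Bgn, rose on the KO arrays, and none of the other 7 genes passed the test. limma called 3 of 10 members higher and 0 lower at an adjusted p under 0.05. Among all 65956 probe sets 5.32% were called higher and 15.6% lower, and among 19232 protein-coding genes 10.7% and 10.2%. At an unadjusted p under 0.05 there were 6 members, beside 31589 of the 65956 probe sets and 9316 of the 19232 protein-coding genes. In 4 members all KO values lay above all WT values, against 11.1% of all probe sets and 23.3% of protein-coding genes. In 1 member they lay all below, against 44.9% and 41.0%. The median change of the 10 was 0.64 on the log2 scale, against -0.37 over all probe sets and -0.18 over protein-coding genes. All calls were lost without WT 1, WT 2, WT 3 or KO 3. In those fits 0 probe sets of the whole table passed, and 5, 4, 3 and 6 members had an unadjusted p under 0.05. So had 23757, 25102, 21579 and 28697 of all 65956 probe sets. Without KO 2, 3 members were called, and without KO 1, 4. In bulk RNA, more cells of a type and more RNA per cell cannot be told apart.

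**Figure D1:**
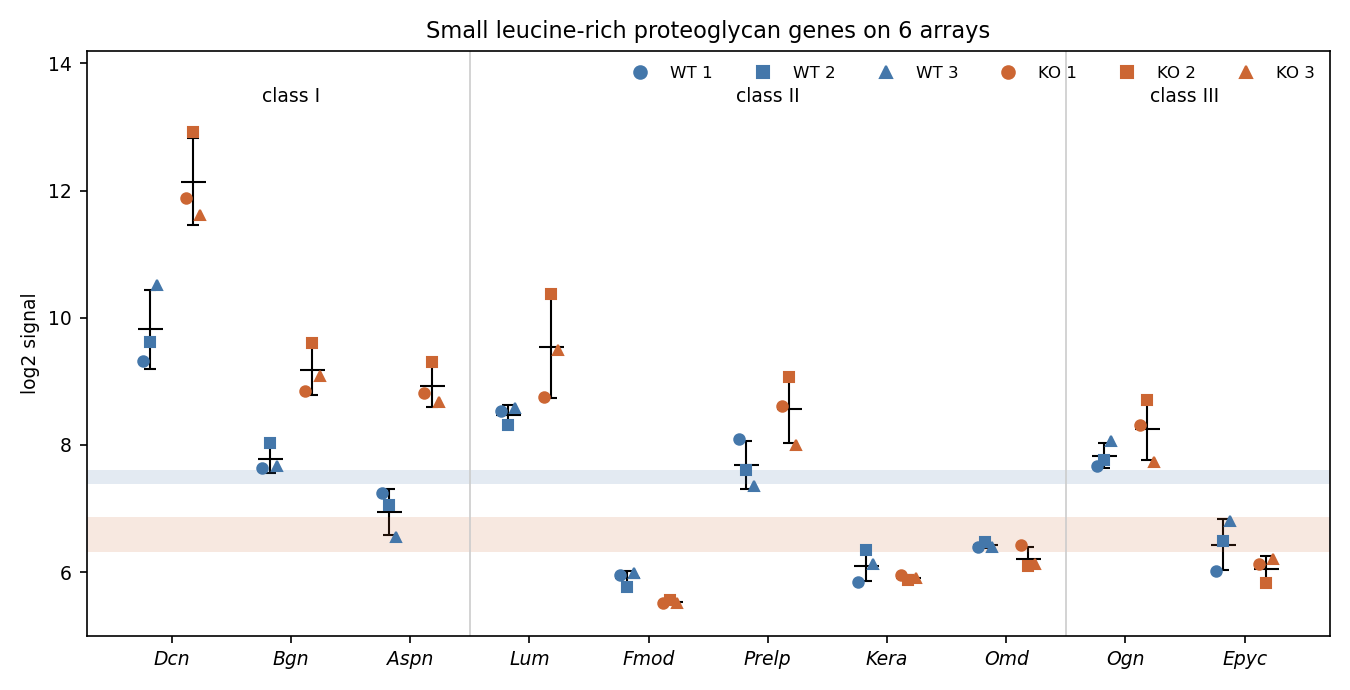
The log2 signal (y axis) of each member gene (x axis, grouped by class) on the 6 arrays; blue symbols are WT and orange symbols KO arrays, and black bars the group mean ± SD. Pale bands span the olfactory receptor medians of the WT (blue) and KO (orange) arrays: Dcn, Bgn, Aspn and Lum have all KO values above all WT values, and Fmod, Kera, Omd and Epyc lie below the median of their own array throughout.

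Decorin, encoded by Dcn, is a class I proteoglycan that binds fibrillar collagen and transforming growth factor beta. Its log2 signal was 9.32, 9.62 and 10.51 on WT 1, WT 2 and WT 3. It was 11.88, 12.92 and 11.62 on KO 1, KO 2 and KO 3. KO 2 was the highest array and WT 3 the highest of the WT arrays, with a gap between the groups. The means were 9.82 ± 0.62 (SD, n = 3) and 12.14 ± 0.69, and the difference was 2.32 ± 0.44 (SE), or 5.0-fold (limma adjusted p = 0.036). Of 19232 protein-coding genes 228 had a larger positive change. Its change was 1.14 relative to the housekeeping mean, 1.42 with B2m left out of that mean, and 3.13 relative to the olfactory receptor median.

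Asporin, encoded by Aspn, is a class I protein that lacks the usual glycosaminoglycan chain and binds collagen. Aspn read 7.24, 7.05 and 6.55 on the WT arrays. On the KO arrays it read 8.81, 9.31 and 8.68. The lowest KO value stood well above the highest WT value. All 3 WT values lay below the olfactory receptor median of their array, and all 3 KO values above it. The difference of 1.99 ± 0.25 (SE), or 3.96-fold (limma adjusted p = 0.0354), therefore starts from a level at which the WT signal cannot be told from background, and its fold is uncertain. It was 0.80 relative to the housekeeping mean, 1.08 with B2m left out, and 2.80 relative to the olfactory receptor median.

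Biglycan, encoded by Bgn, is the closest relative of decorin and binds collagen and the receptors Tlr2 and Tlr4. Bgn read 7.63, 8.03 and 7.67 on WT arrays and 8.85, 9.61 and 9.08 on KO arrays. The groups did not overlap, and KO 2 was again the highest. The difference was 1.40 ± 0.23 (SE), or 2.65-fold (limma adjusted p = 0.0354). Relative to the housekeeping mean it was 0.22, with means of -1.43 ± 0.14 (SD, n = 3) on WT and -1.22 ± 0.06 on KO arrays. It was 0.50 with B2m left out of that mean, and 2.21 relative to the olfactory receptor median. The WT mean of Bgn stood only 0.30 above the olfactory receptor median, so the size of its rise is uncertain. The exact 2-sided permutation p was 0.1 for each of the 3 genes, the smallest that 3 against 3 arrays allow.

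The promoters of Bgn and Aspn differ in base composition. Promoter sequences on GRCm38.p6 were available for 8 of the 10 members, and not for Dcn and Lum. The 250 bases before the start are shown for Bgn and Aspn, which rose, and for Omd, the next gene after Aspn on the chromosome, which was not called. Bgn lies at chrX:73483351-73483600, Aspn at chr13:49544193-49544442 and Omd at chr13:49582212-49582461, all on the plus strand of GRCm38.p6. That is the build of the promoter sequences and not one the array values state. Capitals mark matches on either strand to any of 5 motifs. The TATA box was searched as the letters TATAAA. The GC box, to which Sp1 binds, was searched as GGGCGG. The element that AP-1 binds was searched as TGACTCA, and the element bound by SMAD proteins as CAGACA. The box bound by the factor NF-Y was searched as CCAAT.
Bgn: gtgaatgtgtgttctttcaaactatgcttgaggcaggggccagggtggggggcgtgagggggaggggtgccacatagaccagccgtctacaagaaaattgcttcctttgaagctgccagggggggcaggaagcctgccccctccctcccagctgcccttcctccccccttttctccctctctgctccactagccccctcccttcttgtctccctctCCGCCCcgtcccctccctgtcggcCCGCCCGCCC
Aspn: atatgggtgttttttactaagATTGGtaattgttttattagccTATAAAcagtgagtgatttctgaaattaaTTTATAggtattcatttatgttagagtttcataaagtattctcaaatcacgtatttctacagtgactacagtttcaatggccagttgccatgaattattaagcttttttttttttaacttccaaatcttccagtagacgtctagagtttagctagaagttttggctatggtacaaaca
Omd: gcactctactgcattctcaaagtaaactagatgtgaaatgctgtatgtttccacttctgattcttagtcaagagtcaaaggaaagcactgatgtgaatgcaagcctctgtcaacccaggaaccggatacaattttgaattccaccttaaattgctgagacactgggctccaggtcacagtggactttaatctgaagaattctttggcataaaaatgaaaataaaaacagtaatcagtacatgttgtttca

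The share of G and C was 64.4% before Bgn, 30.0% before Aspn and 38.4% before Omd, against a median of 52.4% over 32851 promoters of the same length. Bgn held 3 matches to the GC box, beginning 34, 10 and 6 bases before the start, the last pair overlapping each other. Aspn held 2 matches to the TATA box letters, 207 and 178 bases before the start, and 1 to CCAAT at 229. None of the 5 motifs was found before Omd. Of all promoters 32.7% held the GC box, 12.4% the TATA box, 33.8% CCAAT, 17.1% the SMAD element and 4.46% the AP-1 letters. A match describes letters only.

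The 5 class II genes gave no call, and split into a brighter pair and 3 dim genes. Lumican, encoded by Lum, carries keratan sulfate and regulates fibril diameter. Lum read 8.54, 8.31 and 8.58 on WT arrays and 8.76, 10.37 and 9.50 on KO arrays. The groups did not overlap, but KO 1 lay just above the WT arrays and the KO values spread widely. It differed by 1.07 ± 0.40 (SE) and missed the threshold (limma adjusted p = 0.085). Without KO 1 it was 1.46 and passed (adjusted p = 0.0388), and without KO 2 it was 0.65 (adjusted p = 0.125). Relative to the housekeeping mean it was -0.12, or 0.16 with B2m left out, and relative to the olfactory receptor median 1.88.

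Prelp, which encodes a basic protein that anchors basement membranes to connective tissue, read 8.10, 7.61 and 7.35 on the WT arrays. It read 8.61, 9.07 and 8.0 on the KO arrays. KO 3 fell within the WT range, so the groups overlapped. The difference was 0.87 ± 0.32 (SE) and did not pass (limma adjusted p = 0.0845), with a 95% confidence interval of 0.09 to 1.66 before adjustment. Relative to the housekeeping mean it was -0.31, or -0.03 with B2m left out, and relative to the olfactory receptor median 1.68. The WT mean of Prelp stood only 0.21 above that median, and WT 3 lay below it.

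Fibromodulin, encoded by Fmod, binds type I collagen at the site that lumican also uses. Fmod was the one member whose KO values all lay below its WT values. It read 5.95, 5.77 and 5.99 on WT arrays and 5.52, 5.56 and 5.52 on KO arrays. Its change of -0.37 ± 0.11 (SE) missed the threshold (limma adjusted p = 0.0574), and equalled the median change of all probe sets. It passed with array weights, at -0.38 (adjusted p = 0.032), and was -0.01 with quantile normalization and -0.04 with arrays centred on their medians. It was -1.56 relative to the housekeeping mean and 0.44 relative to the olfactory receptor median.

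Kera, which encodes the corneal proteoglycan keratocan, read 5.85 to 6.34 on the WT and 5.88 to 5.95 on the KO arrays. Omd, which encodes osteomodulin of mineralised tissue, read 6.40 to 6.48 on WT and 6.09 to 6.42 on KO arrays. Both overlapped between the groups, and neither passed (changes -0.19 and -0.21, limma adjusted p = 0.331 and 0.222). The intervals of the differences, -0.56 to 0.18 and -0.53 to 0.10, hold 0. Their sign turned after quantile normalization, to 0.18 and 0.15. Relative to the housekeeping mean Kera and Omd stood at -1.38 and -1.40, and relative to the olfactory receptor median at 0.62 and 0.59. Fmod, Kera, Omd and Epyc lay below the olfactory receptor median on all 6 arrays, so transcripts of these genes were not distinguishable from background here.

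Of the class III genes, Ogn lay above the olfactory receptor median on all 6 arrays, with a WT mean 0.36 above it. Epyc lay below that median on all 6 arrays. Ogn, which encodes osteoglycin or mimecan, read 7.67, 7.77 and 8.06 on WT arrays and 8.32, 8.70 and 7.73 on KO arrays. KO 3 lay inside the WT range. Ogn differed by 0.42 ± 0.27 (SE), short of the threshold (limma adjusted p = 0.239), and the 95% confidence interval ran from -0.23 to 1.06. Relative to the housekeeping mean it was -0.77 and relative to the olfactory receptor median 1.23. Epyc, which encodes epiphycan of growth plate cartilage, read 6.01 to 6.80 on WT and 5.83 to 6.20 on KO arrays, a difference of -0.38 (adjusted p = 0.217), which was -1.57 and 0.43 relative to these references.

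**Figure D2:**
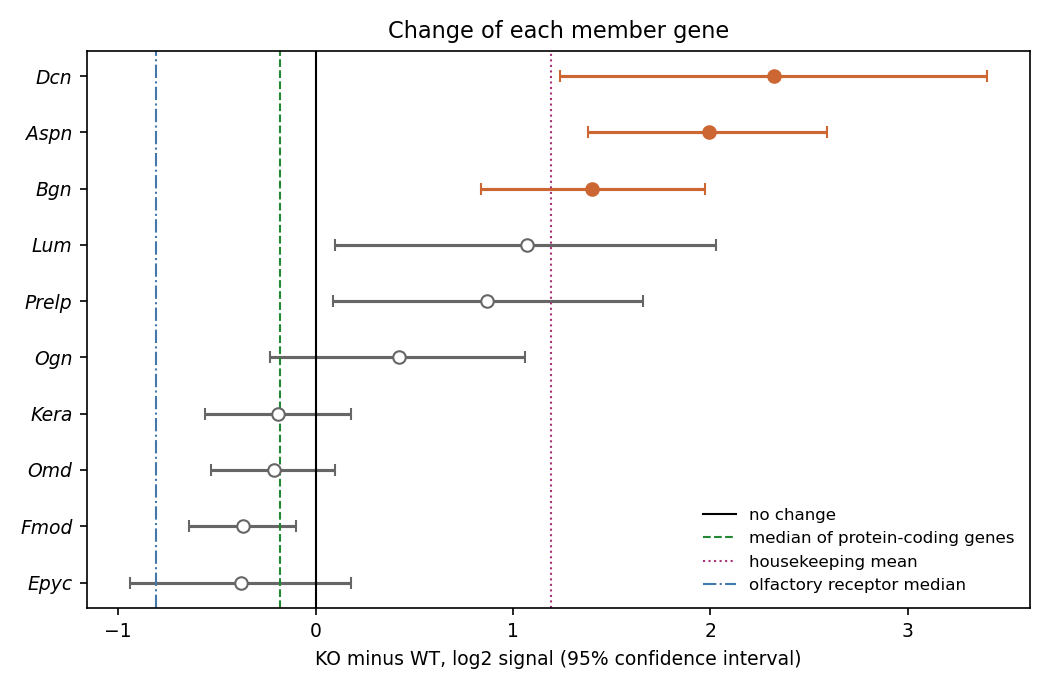
The difference of the group means (x axis, log2 signal, KO minus WT) for each member gene (y axis), with its 95% confidence interval from limma; filled symbols passed at an adjusted p under 0.05. Vertical lines mark no change and the changes of protein-coding genes (median -0.18), of the housekeeping mean (1.19) and of the olfactory receptor median (-0.81): Dcn and Aspn are the members whose whole interval lies to the right of the housekeeping line.

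KO 2 gave the highest value of all 6 arrays in 6 members, Dcn, Bgn, Aspn, Lum, Prelp and Ogn, where 28.8% of protein-coding genes had their highest value on it. It gave the lowest value in 2 of 10 members, against 48.8% of protein-coding genes. Without KO 2 the changes of Dcn, Aspn and Bgn were 1.93, 1.80 and 1.19, and all 3 still passed (limma adjusted p = 0.0387, 0.0217 and 0.0239). Over the 6 fits that left out 1 array, the change of Dcn ranged from 1.93 to 2.67, that of Aspn from 1.79 to 2.13 and that of Bgn from 1.19 to 1.57. Their adjusted p ranged up to 0.114.

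Most members lie in gene clusters, and in each cluster at most 1 gene was called. On chromosome 10 the RefSeq order is Dcn, Lum, Kera, Epyc with no protein-coding gene between them. Along that order the changes were 2.32, 1.07, -0.19 and -0.38, and only Dcn passed. On chromosome 13 the order is Ecm2, Aspn, Omd, Ogn, with changes of 0.26, 1.99, -0.21 and 0.42, and only Aspn passed. On chromosome 1 it is Optc, Prelp, Fmod, with changes of -0.55, 0.87 and -0.37 and no call. Bgn lies apart from other members on the X chromosome. Fmod, Kera, Omd and Epyc lay below the olfactory receptor median on all 6 arrays, and Ecm2 on 5. Their values and missing calls therefore cannot show whether neighbouring genes changed unequally.

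Unequal change was examined in 6 pairs of relatives or neighbours as the difference of their log2 signals within each array. Prelp minus Fmod was 2.15, 1.84 and 1.36 on WT arrays and 3.09, 3.51 and 2.48 on KO arrays. Fmod minus Lum was -2.59, -2.54 and -2.59 on WT and -3.24, -4.81 and -3.98 on KO arrays. These differed by 1.24 and -1.44 on average, without overlap. Fmod was below the olfactory receptor median on all 6 arrays, so neither difference can be read as an unequal change of its transcripts. The same limit holds for the pairs with Omd, Kera or Epyc, and for Aspn on the WT arrays. The exact 2-sided permutation p was 0.1 for Prelp minus Fmod and for Fmod minus Lum, the smallest possible. After Benjamini-Hochberg adjustment over the 6 pairs it was 0.3 for both, so no pair passed. Bgn minus Dcn differed by -0.92, Ogn minus Omd by 0.63, Aspn minus Dcn by -0.34 and Epyc minus Kera by -0.19, all with overlapping groups (exact p = 0.2, 0.2, 0.6 and 0.6, adjusted 0.3, 0.3, 0.6 and 0.6). Aspn minus Dcn was 0.06 without WT 1.

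The genes whose 6 values most resembled those of the 3 brightest members were found by the root mean square difference of centred log2 values over the 6 arrays, among 30701 genes. For Dcn they were the predicted gene Gm12174 (0.21) and the ribosomal pseudogenes Rpl35a-ps4 and Rpl35a-ps6 (0.22 each). The pseudogenes had identical values and cannot be told from each other. For Bgn they were Gm16111 (0.05), the carnitine acetyltransferase gene Crat (0.06) and the nucleic acid binding protein gene Ybx1 (0.06). For Lum they were the kinase scaffold gene Cab39l (0.09), the pseudogene Tes3-ps (0.11) and the purinergic receptor gene P2rx4 (0.12).

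Related genes outside the 10 were followed in lists. Of 7 measured genes of the wider proteoglycan family (Ecm2, Optc, Chad, Chadl, Nyx, Podn, Podnl1) 0 were called by limma. An unadjusted p under 0.05 was found for 3, beside 9316 of 19232 protein-coding genes. Podn, which encodes podocan, read 7.60, 7.61 and 7.54 on WT and 8.36, 9.32 and 8.24 on KO arrays, a difference of 1.06 ± 0.29 (SE, limma adjusted p = 0.0508). Optc, Chad, Chadl and Podnl1 lay all below on the KO arrays without passing (changes -0.55, -0.35, -0.28 and -0.29). Of protein-coding genes 41.0% lay all below, and of all probe sets 44.9%. Chad, Chadl and Podnl1 were below the olfactory receptor median on all 6 arrays. Relative to that median the changes of Optc, Chad, Chadl and Podnl1 were 0.26, 0.46, 0.53 and 0.52. The median of the list was -0.29.

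Genes for enzymes that build the chains were mostly dim, and their measured changes had no common direction. The WT mean was not above the olfactory receptor median in 18 of 21 chondroitin and dermatan sulfate genes. The same held for all 7 keratan sulfate genes, so low signal limits what these lists can show. Of 21 genes for chondroitin and dermatan sulfate 1 rose and 1 fell, with a median change of -0.08. The sulfotransferase gene Chst11, which adds sulfate to chondroitin, read 6.64, 6.73 and 6.64 on WT and 7.45, 8.01 and 7.58 on KO arrays (change 1.01 ± 0.17, limma adjusted p = 0.0354). Its WT mean stood at -0.81 relative to the olfactory receptor median, so the size of its change is uncertain. B3galt6, whose enzyme adds a galactose of the linker to the core protein, read 6.71, 6.14 and 6.64 on WT and 5.45, 5.03 and 5.81 on KO arrays (change -1.07 ± 0.25, adjusted p = 0.0415). B3galt6 was below the olfactory receptor median on all 6 arrays, and its change relative to that median was -0.26. Neither the chain polymerising gene Chsy1 (0.79) nor the sulfotransferase gene Chst15 (0.94) passed (adjusted p = 0.0635 and 0.0754). Of 7 genes for keratan sulfate 2 rose and 0 fell, with a median of 0.01. They were the galactosyltransferase gene B4galt1 (0.89 ± 0.19, adjusted p = 0.0383) and the sulfotransferase gene Chst1 (1.15 ± 0.28, adjusted p = 0.0424), while Chst4 and Chst5 stood at -0.50 and -0.36 without passing. The WT means of B4galt1 and Chst1 stood at -0.79 and -0.14 relative to the olfactory receptor median, so the size of these rises is uncertain too.

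No gene for the collagens and fibre proteins that these proteoglycans bind passed the test. Of 14 measured genes 0 were called by limma and 3 had an unadjusted p under 0.05, beside 9316 of 19232 protein-coding genes. Their changes ran from -0.21 to 0.50 and their median was 0.14, against -0.18 over protein-coding genes. Col1a1, a chain of type I collagen, read 8.07, 7.96 and 7.97 on WT and 8.21, 8.16 and 8.20 on KO arrays (change 0.19 ± 0.10, adjusted p = 0.176). Col3a1 of type III collagen read 7.41 to 7.45 on WT and 7.71 to 7.79 on KO arrays (0.32 ± 0.10, adjusted p = 0.0612). Tnxb, which encodes tenascin X, Lox, whose enzyme cross-links collagen, and Col6a1 stood at 0.50, 0.35 and 0.21 (adjusted p = 0.0651, 0.0749 and 0.147). In 7 of the 14 all KO values lay above all WT values, against 11.1% of all probe sets and 23.3% of protein-coding genes. In 12 of the 14 the WT mean was not above the olfactory receptor median, so low signal limits what this list can show.

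Among receptors and ligands that these proteoglycans bind, 4 receptor genes rose and no ligand gene passed. Of 19 genes 4 rose and 0 fell, with a median change of 0.22. In 16 of the 19 the WT mean was not above the olfactory receptor median. Lrp1, the endocytic receptor that takes up decorin, read 8.28, 8.07 and 7.75 on WT and 10.18, 12.46 and 10.67 on KO arrays (3.07 ± 0.58, or 8.40-fold, limma adjusted p = 0.0359). Kdr, an endothelial receptor for vascular growth factor, rose by 2.48 ± 0.21, Itgb1, an integrin chain of collagen receptors, by 1.82 ± 0.29 and Tgfbr2, a receptor for transforming growth factor beta, by 1.46 ± 0.35. Their adjusted p was 0.0346, 0.0354 and 0.0421. The WT means of Kdr and Tgfbr2 stood at -0.11 and -0.93 relative to the olfactory receptor median, so the size of these rises is uncertain. Tgfb1 and Tgfb2 stood at -0.08 and -0.11, and Tgfb3 at 0.59 (adjusted p = 0.0834). The innate receptors of biglycan, Tlr2 and Tlr4, stood at 0.22 and 0.06 (adjusted p = 0.394 and 0.636). Tlr2, Tlr4 and Tgfb2 lay below the olfactory receptor median on all 6 arrays, so their transcripts were not distinguishable from background.

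Of 12 genes for proteases that process or cleave these proteins 0 rose and 1 fell, with a median of -0.08. In 11 of the 12 the WT mean was not above the olfactory receptor median. Tll1, related to the procollagen proteinase Bmp1, read 7.11, 6.81 and 6.85 on WT and 6.54, 6.23 and 6.3 on KO arrays (change -0.57 ± 0.14, limma adjusted p = 0.0452). It lay below the olfactory receptor median on all 6 arrays, and relative to that median its change was 0.24, of opposite sign. The metalloproteinase genes Mmp2 and Mmp14 stood at 0.93 and 0.49, and the granzyme gene Gzmb at -0.30, without passing (adjusted p = 0.0801, 0.0912 and 0.0717).

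**Figure D3:**
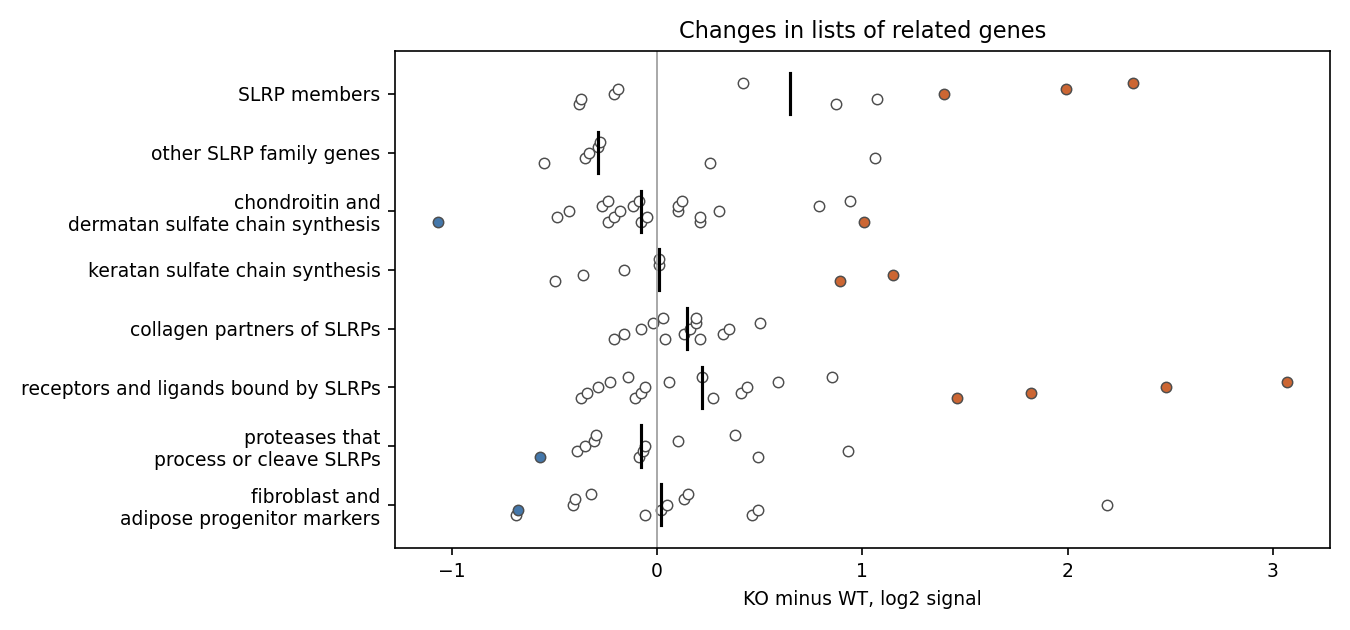
Each circle is a gene at its change (x axis, KO minus WT, log2 signal) in 8 lists (y axis), and the black bar is the median of the list; orange circles rose and blue circles fell at an adjusted p under 0.05. The members reach from -0.38 to 2.32, while no collagen partner exceeds 0.50.

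Markers of the cells that could supply this RNA moved differently. Of 13 measured fibroblast and adipose progenitor markers 0 rose and 1 fell, with a median of 0.02. The list mean was 7.46 to 7.64 on WT and 7.54 to 7.70 on KO arrays. In 10 of the 13 the WT mean was not above the olfactory receptor median, so low signal limits what this list can show. The fall was in Clec11a (-0.68 ± 0.15, limma adjusted p = 0.0386), which lay below the olfactory receptor median on 5 of 6 arrays and whose change relative to it was 0.13. The next smallest p was in F3, the gene of tissue factor, which differed by 0.46 ± 0.14 (adjusted p = 0.0576). Dpt, which encodes dermatopontin, a matrix protein that binds decorin, had the largest change of this list and was singled out after its values were seen. It read 13.51, 12.95 and 11.03 on WT and 14.58, 16.06 and 13.43 on KO arrays, which overlapped (2.19 ± 0.87, adjusted p = 0.0979). The 3 genes in this list with a WT mean above the olfactory receptor median were Dpt, Cd34 and Mfap5. Cd34 read 8.07 to 8.13 on WT and 7.95 to 8.27 on KO arrays. Mfap5 read 7.22 to 7.82 on WT and 7.49 to 7.80 on KO arrays.

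Adipocyte markers had a median change of 2.73, with 10 of 14 called higher and none lower. Pparg and Adig had the smallest p (changes 3.66 and 2.31, limma adjusted p = 0.0354 for both), while larger changes were called in other genes of the list, such as Cd36 at 5.07. The WT mean of Adig stood at -1.0 relative to the olfactory receptor median, so the size of its rise is uncertain. The adipocyte list mean was 8.5 to 10.09 on WT and 11.79 to 13.05 on KO arrays. Of 9 endothelial markers 7 rose, of 10 smooth muscle and pericyte markers 3 and of 10 macrophage markers 2, with 1 macrophage marker lower. In 7, 6 and 7 of these endothelial, pericyte and macrophage genes the WT mean was not above the olfactory receptor median. Low signal therefore limits what these lists can show. The part of these cell types in the rise of Dcn, Aspn and Bgn was not tested. No lymphocyte, mesothelial or epithelial, or tendon, cartilage and bone marker rose (medians -0.40, -0.33 and -0.26 of 9, 10 and 9 genes), and 2, 1 and 0 fell. In 8, 10 and 8 of these genes the WT mean was not above the olfactory receptor median. The smallest p in the endothelial list were those of Cdh5 and Kdr, which rose by 4.06 and 2.48. In the pericyte list they were those of Rgs5 and Abcc9, at 1.93 and 0.99, and in the macrophage list those of Lyz2 and C1qb, at 1.61 and 0.80, all called higher. The WT means of Cdh5, Kdr, Rgs5, Abcc9 and C1qb stood at -0.47, -0.11, -0.13, -0.26 and -0.06 relative to the olfactory receptor median. The size of these rises is therefore uncertain, while the WT mean of Lyz2 lay above that median. The lymphocyte genes Cd79a and Ms4a1 were called lower, at -0.52 and -0.93, as was the keratin gene Krt14, at -0.69. Relative to the olfactory receptor median these 3 stood at 0.29, -0.12 and 0.12. Upk3b, Bglap and Acan, at -0.41, -0.96 and -0.43, did not pass (adjusted p = 0.0527, 0.0673 and 0.0845).

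Skeletal muscle, whose connective sheath also holds these proteoglycans, was visible on KO 1 and KO 2. The mean of 10 muscle markers was 6.87 to 6.92 on the WT arrays, 8.61 on KO 1, 10.18 on KO 2 and 6.78 on KO 3. The fast myosin gene Myh4 read 10.09 and 12.23 on KO 1 and KO 2 and 6.28 on KO 3, against 6.51 to 6.65 on WT arrays. The muscle genes with the smallest p, Atp2a1 and Mylpf, stood at 3.36 and 0.75 and did not pass (limma adjusted p = 0.123 and 0.127). On KO 3, where muscle markers were at the WT level, Dcn read 11.62, Bgn 9.08 and Aspn 8.68, each above all WT arrays. Lum on KO 3, at 9.50, was also above all WT arrays, while Prelp and Ogn on KO 3 lay in the WT range. The part of muscle in any of these changes was not tested, and KO 3 is a single array.

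**Figure D4:**
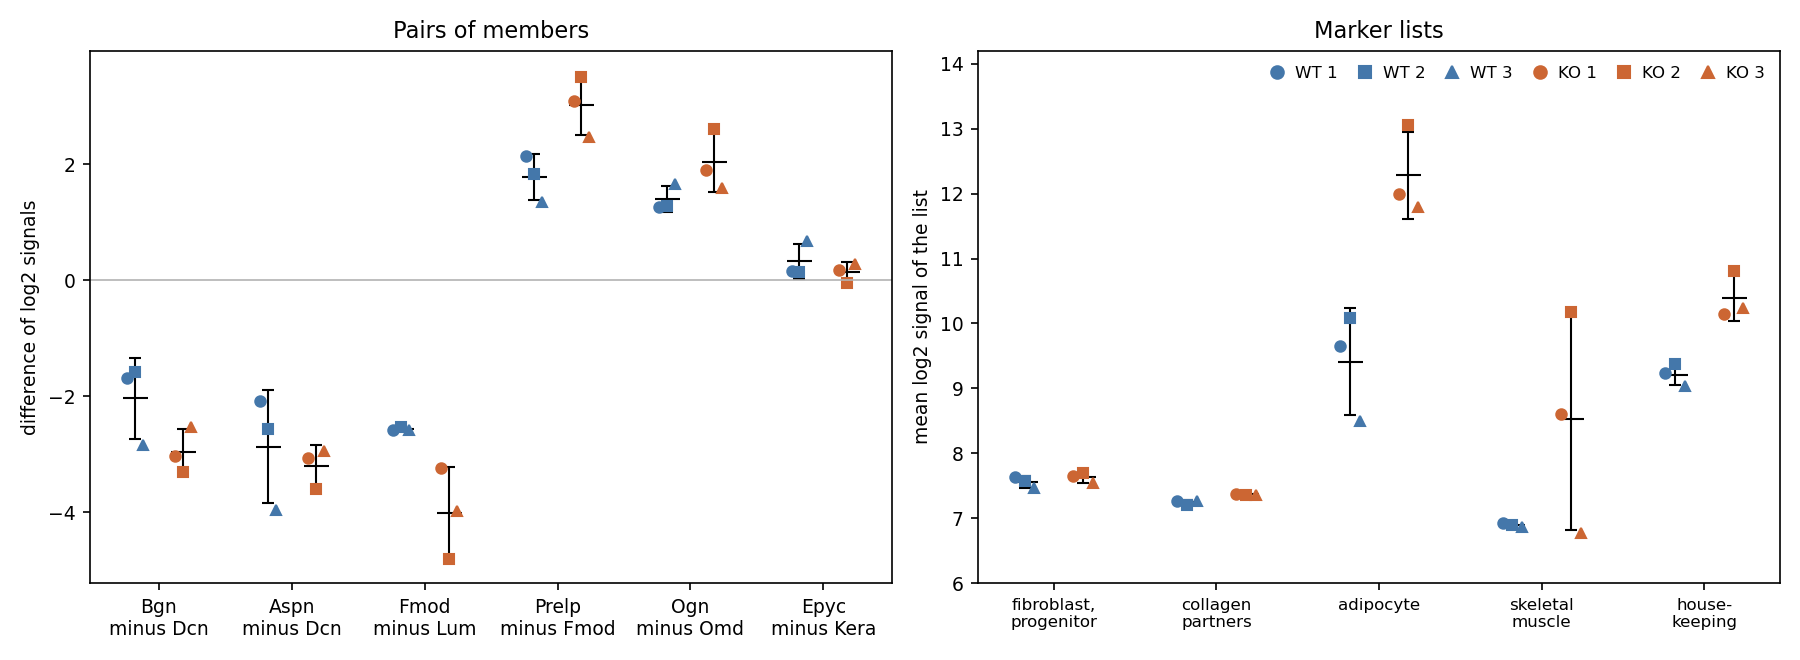
Left, the difference of log2 signals (y axis) within 6 pairs of members (x axis); right, the mean log2 signal (y axis) of 5 gene lists (x axis), with arrays as symbols (blue WT, orange KO) and black bars for the group mean ± SD. Fmod minus Lum and Prelp minus Fmod do not overlap between groups, but Fmod is below the olfactory receptor median on all 6 arrays. The fibroblast and collagen lists stay between 7.20 and 7.70. In 10 of 13 and 12 of 14 of their genes the WT mean is not above the olfactory receptor median. The muscle list is raised on KO 1 and KO 2 but not on KO 3.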

How the data were processed

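Biotin-labelled RNA was measured on 6 whole-transcript arrays, and Transcriptome Analysis Console is named, without version, per the submitters' processing notes. The authors deposited log2 signals per probe set, 65956 per array. The sources used here give no background correction, normalization or genome build. Array medians differ, no detection calls were used, and the number of arrays limits precision.

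GEO's probe annotation, updated through RefSeq's GRCm38.p6 gene table, gave 31258 probe sets 1 symbol, 1492 several and 33206 none. Each gene is represented by its probe set with the highest mean. All probe sets, with no filter on low signal, were fitted with limma 3.58.1 in R 4.3.3 (lmFit, eBayes, genotype as the only term) and adjusted by Benjamini-Hochberg over the whole table. The fit was tested on simulated data. Exact permutation tests are 2-sided. The titles call the arrays of a group biological replicates. They were taken as independent, and whether each array is a single mouse is not stated there.

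Members and lists were chosen with earlier results of these data known. Named genes are the members, Tfg, the wider family, the 4 smallest p and all calls of each partner list, the 2 smallest p of marker lists, and the 3 nearest patterns of the 3 brightest members. Further genes were chosen after their values were seen. These are Col1a1, Tgfb1, Tgfb2, Tgfb3, Tlr2, Tlr4, Cd34, Cd36, B2m, Dpt, Mfap5 and Myh4. Alternatives were quantile normalization, median centring, the brighter probe sets, trend with robust, a block for replicate numbers, array weights and leaving out each array. Tables and plots used Python 3.11.15, pandas 2.3.3 and matplotlib 3.10.9.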

Additional observations from a re-analysis of the deposited data

How the results depend on the processing

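Dcn, Aspn and Bgn kept their direction and their call under all 6 alternatives that used every array, with changes of 2.02 to 2.68, 1.77 to 2.32 and 1.27 to 1.73. Leaving out 1 array gave 0 to 4 members called higher and 0 lower, and over all probe sets 0 to 3469 higher and 0 to 10697 lower. limma called 0 probe sets without WT 1, WT 2, WT 3 or KO 3, with 23757, 25102, 21579 and 28697 at an unadjusted p under 0.05. The number called lower over all probe sets was 10282 as deposited, 2212 after quantile normalization, 3259 after centring on the median and 17432 with array weights, beside 3509, 4032, 5146 and 4977 higher. With array weights 1 member, Fmod, was called lower, and Lum was called higher (0.89). Kera and Omd turned sign after quantile normalization (0.18 and 0.15) and after centring (0.14 and 0.12), without passing. Aspn minus Dcn ranged from -0.88 to 0.06 with 1 array left out. The cause of these shifts was not tested. Tfg passed under none of these settings (0.07 to 0.47). With the replicate number as a block 3 members were called higher, with 2960 probe sets higher and 8267 lower. Deviations of same-numbered arrays correlated at 0.002, 0.205 and 0.139, so the numbers were not taken as pairs. WT 3 correlated more with KO 1 (0.171) than with KO 3, while WT 2 correlated most with KO 2. WT 1 stood between -0.031 and 0.019 with the KO arrays. Relative to the housekeeping mean, 3 members were positive, and 4 with B2m left out of that mean. Relative to the olfactory receptor median all 10 were positive, with Fmod, Kera, Omd and Epyc turning to 0.44, 0.62, 0.59 and 0.43. These 3 comparisons were added after seeing the data. The olfactory receptor median changed by -0.81, against a median change of -0.37 over all probe sets and -0.18 over protein-coding genes. Most probe sets and most protein-coding genes are therefore also positive relative to it, so the count of 10 is not particular to the members. Fmod, Kera, Omd and Epyc lay outside the brighter probe sets and have no value there. Each member has 1 probe set, so averaging probe sets changed nothing.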
